A study of Mus musculus with 5 samples.

Results

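Natural killer (NK) cells were studied in droplet single-cell RNA profiles of mouse kidney. The cells were chosen by a rule on their transcripts, counted as unique molecular identifiers (UMIs). Barcodes were kept where they had 200 or more genes and less than 50% of their UMIs from mitochondria. A kept barcode was selected as an NK cell when it held at least 3 UMIs of the 5 genes Ncr1, Klre1, Klrb1c, Gzma and Prf1, with at least 1 of them from Ncr1, Klre1 or Klrb1c. It also had to hold fewer than 2 UMIs of Cd3d, Cd3e and Cd3g together and none of Cd79a, which kept out T and B cells. The rule found 167 NK cells among 22591 kept barcodes, or 0.739% of them. The kidneys came from C57BL/6j mice in which pristane, a hydrocarbon oil, had induced a lupus-like disease. Per the labels and the series' design text, 2 of these mice were given saline and 3 were given a fecal microbiota transplant (FMT) from MRL/MpJ mice, so every mouse carried the pristane treatment. No untreated mice are among these samples, and age and sex are not given in the sources used here. The labels name tubular epithelial cells and B cells as the material, and a kit for total RNA as the extraction, whereas the files are droplet matrices that also held lymphocytes and myeloid cells.

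NK cells are innate lymphocytes that kill stressed, infected or transformed cells without prior sensitisation, by releasing perforin and granzymes from preformed granules. They read a balance of activating receptors, such as NKp46 (Ncr1) and NKG2D (Klrk1), and inhibitory receptors that recognise MHC class I, among them the Ly49 family in mice. Type 1 innate lymphoid cells (ILC1) share NKp46 and NK1.1 with NK cells, stay in tissues and make little perforin.

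The stretches upstream of 3 of the 5 rule genes are shown because counts of Gzma and Prf1 separated the NK cells into 2 kinds below, while Ncr1 helped to select both kinds. Sequences are from RefSeq on GRCm38.p6, are printed from 5′ to 3′ on the gene's strand and end at the base before the annotated start. Capitals mark the letters TGTGGT or ACCACA, a Runx hexamer read on both strands, and CAGGAAGT or ACTTCCTG, an Ets octamer.
Ncr1, chr7:4337565-4337714, plus strand: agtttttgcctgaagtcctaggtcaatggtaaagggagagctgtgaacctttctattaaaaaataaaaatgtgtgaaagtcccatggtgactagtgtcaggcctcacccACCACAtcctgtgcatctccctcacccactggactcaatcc
Gzma, chr13:113100982-113101131, minus strand: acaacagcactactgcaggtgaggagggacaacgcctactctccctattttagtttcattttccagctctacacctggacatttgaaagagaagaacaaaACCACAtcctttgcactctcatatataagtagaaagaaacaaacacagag
Prf1, chr10:61297686-61297835, plus strand: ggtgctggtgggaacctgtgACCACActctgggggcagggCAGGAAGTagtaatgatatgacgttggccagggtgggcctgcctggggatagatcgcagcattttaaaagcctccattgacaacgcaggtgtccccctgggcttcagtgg
Within 250 bases upstream, the Runx hexamer was found in 5 of the 5 rule genes, for Klre1 in only 1 of its entries, and in 14.0% of all 32851 promoters of that length. The Ets octamer was found in 1 of the 5, Prf1, and in 2.69% of all promoters. A T-box heptamer, TCACACC or GGTGTGA, was found in 0 of the 5 and in 3.33% of all promoters. These matches describe the letters only.

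The NK cells carried far more of the rule's transcripts than the rule asked for. They held a median of 88 rule UMIs each, with quartiles of 21 and 158. Just inside the threshold, 3 cells held 3 rule UMIs, and just outside it, 6 barcodes held 2. A further 106 barcodes had enough rule UMIs and were left out for 2 or more CD3 UMIs, 5 were left out for a Cd79a UMI, and 11 NK cells held 1 CD3 UMI. Saline mice 1 and 2 gave 30 and 11 NK cells, and FMT mice 1 to 3 gave 68, 33 and 25. Their median depth was 4106 and 5558 UMIs per cell in the saline mice and 3470.5, 4910 and 2935 in the FMT mice, and the summed depth ranged from 65549 to 342605 UMIs per library. Scrublet placed 10 of the 167 among the likely doublets, and 11 held 20 or more UMIs of proximal tubule genes, 8 of these in FMT mouse 1. Libraries shared 2 to 8 barcodes per pair, and 1 of these shared barcodes belonged to an NK cell.

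The rule genes define these cells, so their levels are given without a test. Levels are in CPM, the UMIs of a gene summed over the cells of a class in a library and scaled to the same total for every library. They are given as the mean ± SD over the 5 libraries for NK cells and as the mean alone for the classes set against them. Ncr1, the activating receptor NKp46, was at 941 ± 211 CPM in NK cells and at 2.36 CPM in T cells. Klrb1c, which encodes NK1.1, was at 848 ± 122 CPM against 14.5 CPM. Gzma, a granule protease, was at 20398 ± 2586 CPM against 408 CPM, and Prf1, the pore-forming perforin, was at 465 ± 130 CPM against 10.5 CPM. In T cells Gzma ranged from 70.0 to 1064 CPM over the libraries, with the highest value in FMT mouse 2. A UMI of Ncr1 was seen in 91.6% of NK cells and in 0 of 2076 B cells, which allows a share of up to 0.145%. Gzma was seen in 83.8% of NK cells and in 1.45% of B cells, at median depths of 4005 and 3066 UMIs.

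Genes that the rule did not use also set the NK cells apart from CD8 T cells with Ccl5 or Nkg7 UMIs, called effector CD8 T cells here. No test was made, since the rule chose the cells on this contrast. Fcer1g and Tyrobp, adapters that carry the signal of activating receptors, were at 3598 ± 605 and 3231 ± 521 CPM in NK cells and at 111 and 92.8 CPM in effector CD8 T cells. Gzmb was at 3517 ± 1521 CPM against 181 CPM, and Tbx21, the transcription factor T-bet, was at 187 ± 30.8 CPM against 37.2 CPM. In effector CD8 T cells Gzmb ranged from 69.5 to 451 CPM, highest in FMT mouse 2, and Tyrobp from 4.31 to 198 CPM. The ratio was smaller for Nkg7 and the chemokine gene Ccl5, which helped to choose the effector CD8 T cells, with Nkg7 at 4741 ± 487 CPM against 1562 CPM and Ccl5 at 34115 ± 8070 CPM against 8698 CPM. Receptors found at lower levels in NK cells were Il7r, the interleukin 7 receptor, at 50.3 ± 61.2 CPM against 556 CPM, and Cd27 at 43.1 ± 26.7 CPM against 146 CPM. Cxcr6, a receptor of tissue-resident lymphocytes, lay between 15.3 and 193 CPM in NK cells and had a mean of 267 CPM in effector CD8 T cells. After each cell was thinned to 1000 UMIs, Il7r was seen in 5.59% of 161 NK cells and 30.3% of 1132 effector CD8 T cells. Unthinned, these shares were 10.8% and 58.1%.

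**Figure D1:**
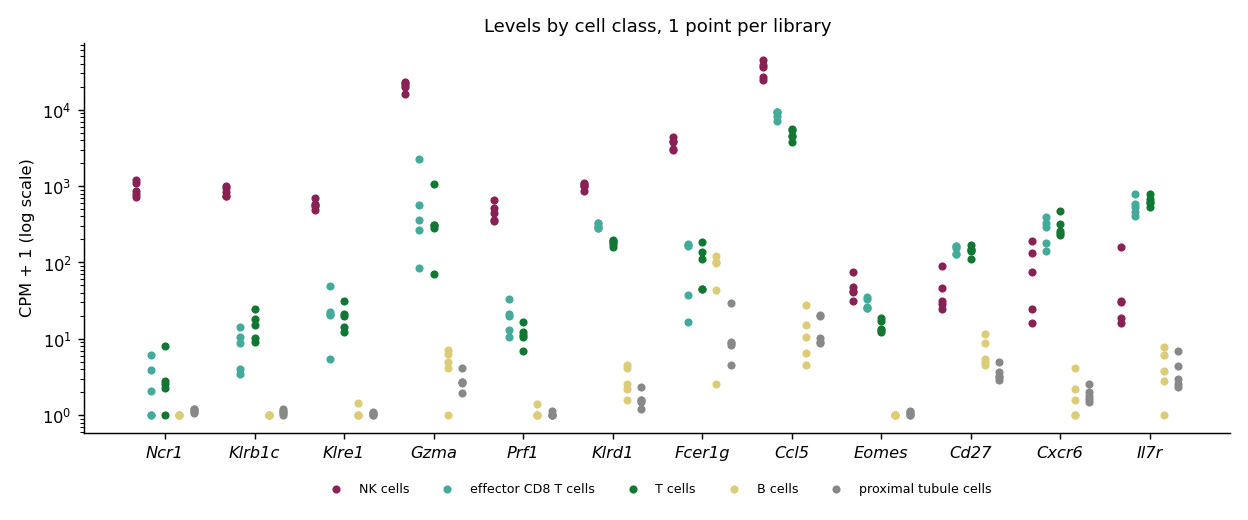
Levels of 12 genes in 5 cell classes, as CPM plus 1 on a log scale, with 1 point per library. Ncr1, Klrb1c, Klre1, Gzma and Prf1 chose the NK cells, whose points lie above those of every other class for these genes, while Cd27 and Il7r are lower in NK cells than in both T cell classes.

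By the ratio of mean CPM in NK cells over T cells, the leading genes with at least 100 CPM were Klra8, Klra4, Serpinb9b, Ncr1, Cma1, Klrb1a, Klrb1b, Adamts14, Klra3 and Scimp. Klra4 and Klra8 encode the activating receptors Ly49D and Ly49H, and they were at 499 ± 121 and 300 ± 73.5 CPM in NK cells. Effector CD8 T cells held 0 UMIs of either. Serpinb9b encodes an inhibitor of serine proteases and was at 398 ± 185 CPM in NK cells and 0.608 CPM in T cells. Cma1 encodes a chymase best known from mast cells, and it was at 503 ± 160 CPM in NK cells and 1.29 CPM in T cells. Of the 7 mast cell and basophil markers, which include Cma1 itself, 2 had any UMI in NK cells, and Mcpt8, Ms4a2 and Fcer1a had none. Cma1 gave nearly all UMIs of this list, 74 of 75 in saline mouse 1 and all of them in the other mice. Ly49 genes and the Klrb1 genes are near-identical families, so the counts of single members are uncertain.

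Ly49 receptors were spread unevenly over single cells, as is known for a family that each NK cell uses in part. Of 6 Ly49 genes (Klra1, Klra3, Klra4, Klra7, Klra8 and Klra9), 34 of the 167 cells had a UMI of none, 37 of 1, 31 of 2, 35 of 3, 26 of 4 and 4 of 5. Klra4 and Klra8 were seen together in 36 cells, Klra4 alone in 29, Klra8 alone in 18 and neither in 84. By library, Klra8 was seen in 10 of 30 and 2 of 11 NK cells of the saline mice and in 24 of 68, 12 of 33 and 6 of 25 of the FMT mice. The highest of the saline shares, 33.3%, lies within the range of the FMT shares. Klra7, the inhibitory receptor Ly49G2, was seen in 36.7% and 18.2% of the saline cells and in 36.8%, 54.5% and 32.0% of the FMT cells, which also overlap. Itgam, the CD11b of mature NK cells, was seen without Cd27 in 76 cells, Cd27 without Itgam in 13, both in 8 and neither in 70. At these depths a cell with no UMI of a receptor gene may still express it.

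The NK cells fell into 2 kinds by their granule transcripts. Of the 167 cells, 24 held 0 UMIs of Gzma and Prf1, and only 3 held from 4 to 9. A limit of 5 UMIs, chosen after these values were seen, gave 33 cells with few granule UMIs and 134 granule-rich cells. Because of that choice the differences between both kinds are given without a test, and the limit marks a range of cells, not a proven cell type. Cells with few granule UMIs had to enter through UMIs of Ncr1, Klre1 or Klrb1c, so the Ncr1 shares, 31 of 33 and 122 of 134 cells, follow from the rule. Of the genes outside the rule, the signalling adapter Fcer1g was seen in 30 of 33 and 132 of 134, and NKG2D (Klrk1) in 29 of 33 and 125 of 134. Median depths were 3201 and 4515.5 UMIs per cell.

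Several genes of tissue-resident lymphocytes and ILC1 were seen mostly in the cells with few granule UMIs. Cxcr6, a chemokine receptor that holds lymphocytes in tissue, had a UMI in 19 of the 33 cells and in 0 of the 134, which allows a share of up to 2.24%. Il7r was seen in 15 of 33 against 3 of 134, and Xcl1, a chemokine that attracts dendritic cells, in 27 of 33 against 13 of 134. The lymphotoxin gene Ltb was seen in 25 of 33 against 6 of 134, Cxcr3 in 20 against 6, Cd160 in 21 against 15 and Cd7 in 24 against 22. Rarer genes followed, with Tnfsf10, the death ligand TRAIL, in 6 against 2, Cd200r1 in 4 against 0 and Itga1, the integrin CD49a, in 5 against 4. Other residency markers did not follow this order. Cd69 was seen in 2 of 33 against 32 of 134 cells, Zfp683, the residency factor Hobit, in 1 cell of each kind, and Itgae, the integrin CD103, in 0 of both. The 16-gene ILC1 and tissue-resident list, which contains Cxcr6, Il7r and Xcl1, had a median of 3946 CPM per cell against 328 CPM. A 15-gene list of immature CD27-positive NK cells was also higher in them, with a median of 4837 CPM per cell against 428 CPM. Cd27 itself was seen in 8 of 33 against 13 of 134 cells. Whether the cells with few granule UMIs are ILC1 or immature NK cells was not tested. The ILC2 and ILC3 list was sparse, with a UMI in 15 of 33 cells with few granule UMIs and in 30 of 134 granule-rich cells. Within it Rora was seen in 6 of 33 against 4 of 134 cells and Gata3, which NK cells also express, in 10 of 33 against 26 of 134. UMIs of the T cell list were found in 15 of 33 and 34 of 134 cells, and UMIs of the monocyte and macrophage list in 20 of 33 and 55 of 134. The part of such transcripts in the split was not tested.

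The granule-rich cells carried genes of mature circulating NK cells. Gzmb was seen in 130 of 134 against 6 of 33 cells, and Cma1 in 99 of 134 against 0 of 33, which allows a share of up to 9.09%. Klrg1, a receptor of terminally mature cells, was seen in 89 against 1, S1pr5, the receptor that guides NK cells out of tissue, in 75 against 1, and Itgam in 80 against 4. The transcription factor genes Zeb2 and Klf2 were seen in 70 against 2 and in 129 against 9 cells. Eomes, which distinguishes NK cells from ILC1, was seen in 30 of 134 against 1 of 33. Ly49D (Klra4) was seen in 65 against 0 and Ly49H (Klra8) in 54 against 0. None of the 6 Ly49 genes was seen in 24 of the 33 cells with few granule UMIs and in 10 of the 134 others. After thinning to 1000 UMIs, Cxcr6 was seen in 11 of 31 against 0 of 130 cells and Klrg1 in 1 of 31 against 42 of 130, which keeps the order of the unthinned shares. Eomes was then seen in 3.23% of the 31 and 6.15% of the 130 cells, a much smaller difference than without thinning. Tbx21, seen in 8 of 33 against 76 of 134 cells unthinned, was seen in 6 of 31 against 23 of 130, which does not keep the order.

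**Figure D2:**
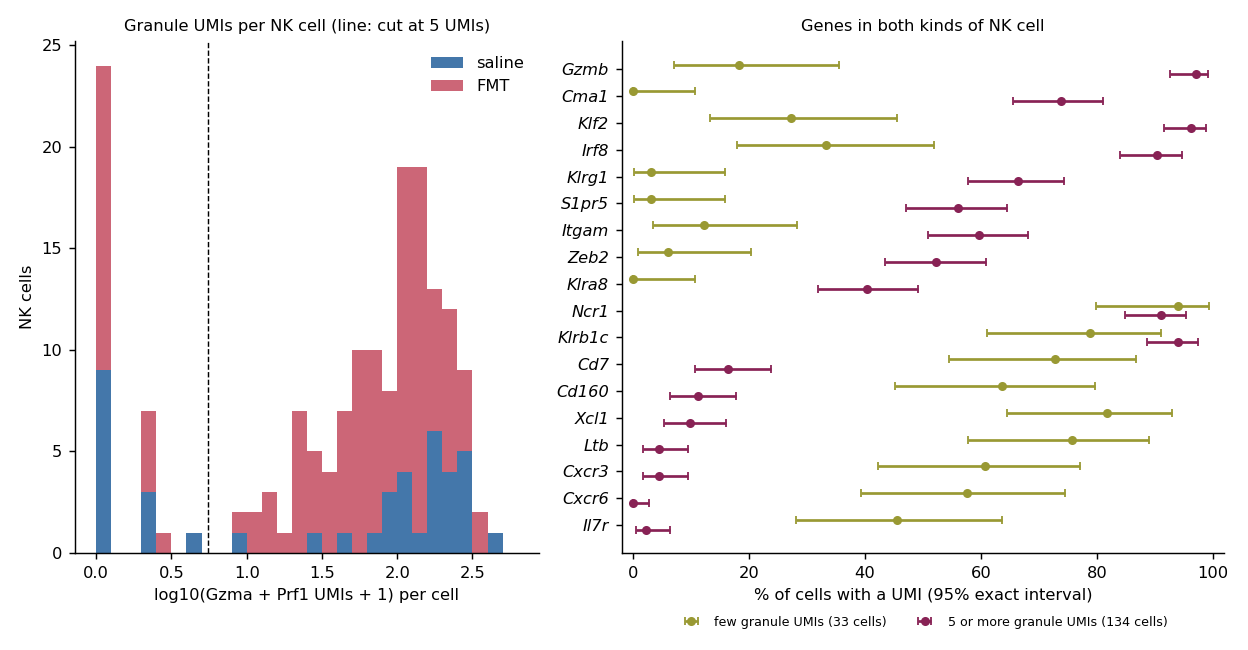
Left, the number of NK cells by log10 of Gzma plus Prf1 UMIs plus 1, coloured by group, with a line at the limit of 5 UMIs. Right, the share of cells with a UMI of 18 genes in the 33 cells with few granule UMIs and the 134 granule-rich cells, with 95% exact binomial intervals, which cover counting error only. Ncr1 and Klrb1c chose the cells, so their shares follow from the rule. Gzmb to Klra8 lie far to the right for granule-rich cells, and Cd7 to Il7r for the others.

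NK cells made up a larger share of the kidney barcodes in each FMT mouse than in either saline mouse. They were 0.572% and 0.336% of kept barcodes in saline mice 1 and 2 and 1.08%, 0.673% and 0.875% in FMT mice 1 to 3. The groups do not overlap, although saline mouse 1 and FMT mouse 2 lie close together, with 95% exact binomial intervals of 0.386 to 0.816% and 0.463 to 0.943%. The mean was 0.454% ± 0.167 (SD, n = 2) with saline and 0.875% ± 0.202 (SD, n = 3) with FMT, a ratio of 1.93. The two-sided exact permutation p was 0.2, the same after adjustment over the 3 share tests, and 2 against 3 mice allow no p below 0.1. Among NK plus T cells, NK cells were 4.80% and 2.28% with saline and 6.27%, 4.88% and 9.58% with FMT, and saline mouse 1 lay just under FMT mouse 2. These means were 3.54% ± 1.78 and 6.91% ± 2.41, with an exact permutation p of 0.2. Among barcodes with a Ptprc UMI, the CD45 of leukocytes, they were 1.52% and 1.13% against 4.05%, 2.73% and 4.73%, also with an exact permutation p of 0.2. The difference between the groups did not pass the test on any of these denominators. Shares of captured barcodes cannot tell more NK cells in the kidney apart from fewer other cells captured or a different yield. Nothing in the labels says that replicates were prepared apart, so a p-value here covers only the spread among the 5 libraries. Title codes of the samples begin with C or D for saline and with B for FMT, so a batch that follows these codes and the treatment cannot be told apart.

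The higher share lay in the granule-rich cells. They were 0.382% and 0.244% of kept barcodes in the saline mice and 0.919%, 0.591% and 0.665% in the FMT mice, with a ratio of means of 2.32 and no overlap. Cells with few granule UMIs were 0.191% and 0.0917% against 0.158%, 0.0815% and 0.210%, with a ratio of 1.06 and overlapping groups. Of all NK cells they were 33.3% and 27.3% in the saline mice and 14.7% and 12.1% in FMT mice 1 and 2, with 6 of 25 cells in FMT mouse 3. They numbered 3 to 10 per mouse. These values were not tested, as the limit was chosen on these cells.

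**Figure D3:**
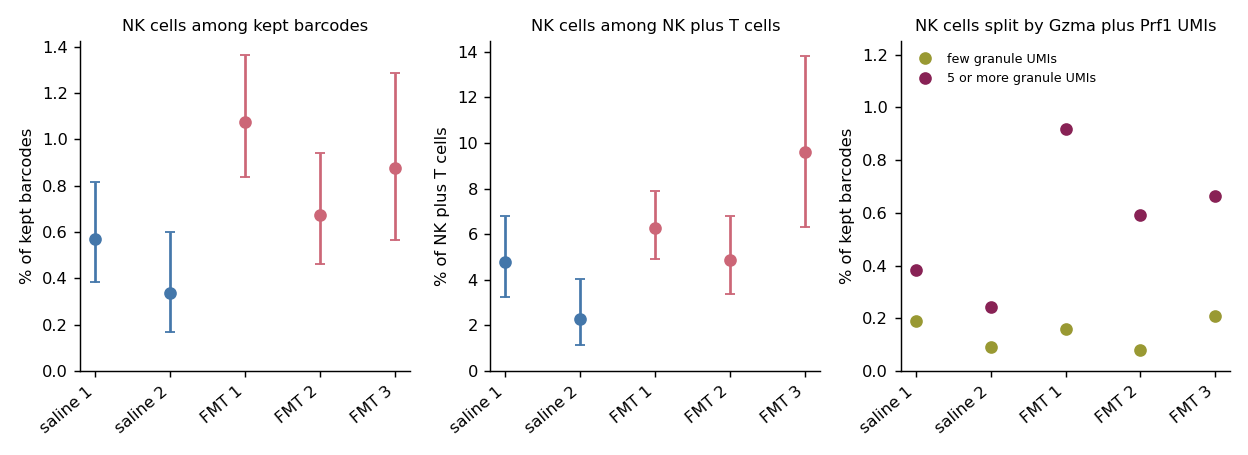
NK cells as a percentage of kept barcodes (left) and of NK plus T cells (middle) in each mouse, with 95% exact binomial intervals, and the same cells split into few-granule and granule-rich cells as a percentage of kept barcodes (right). The 3 FMT mice lie above both saline mice in the left and middle plots and for granule-rich cells, while the cells with few granule UMIs overlap between the groups.

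Within NK cells no gene passed the test of FMT against saline. The edgeR quasi-likelihood test on UMIs summed per mouse called 0 of 2380 genes at an adjusted p under 0.05, a share of 0.0%. Without adjustment 63 genes had a p under 0.05, which is 2.65% of those tested. DESeq2 called 0 as well. The median log2 fold change of all genes was -0.01, with 1172 genes higher and 1208 lower. Of the 42 genes of a panel of NK cell functions, which holds the 5 rule genes, 35 had enough UMIs to be tested, and 0 were called. These 12 higher and 23 lower values had a median of -0.11 on the log2 scale. The rule genes among them are counted as description only. The share of all tested genes without overlap between the groups was not counted, so a lack of overlap alone singles out no gene.

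The Ly49, NKG2 and other killer cell receptors of the panel overlapped between the groups, apart from Klre1. None of those outside the rule was called, while Ncr1, Klre1 and Klrb1c chose the cells and are given without a test. Ncr1, a rule gene and so given without a test, was at 795 and 1098 CPM in the saline mice and at 718, 1219 and 872 CPM in the FMT mice. The log2 fold change of Klrk1 was -0.20 ± 0.25 (SE) and Klrd1, the CD94 partner of NKG2 receptors, -0.01 ± 0.22. Klra8 was at 325 and 183 CPM against 385, 300 and 304 CPM, which overlap, and its log2 fold change was 0.27 ± 0.33. Klra7 was at 311 and 76.3 CPM against 161, 760 and 446 CPM, with a log2 fold change of 1.01 ± 0.70 that ran from 0.41 to 2.57 when 1 mouse was left out. Over the activating receptor and adapter list, 9 of 19 tested genes were higher and 10 lower, with a median of -0.03. Over the inhibitory receptors 5 of 9 were higher, with a median of 0.07. In each of these lists 0 genes were called. Any rule gene in them is counted as well, and its value depends on how the cells were chosen.

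Granule genes and chemokines were at high levels in both groups. Gzma, which also chose the cells, was at 22764 and 22136 CPM with saline and at 16226, 21030 and 19835 CPM with FMT. The groups do not overlap, and no test is given because Gzma UMIs selected the cells. Gzmb was at 2601 and 6194 CPM against 2566, 3215 and 3010 CPM, and its high mean with saline came from mouse 2 alone. Prf1, also a rule gene, was at 346 and 519 CPM against 356, 660 and 446 CPM, which overlap. Ccl5 was at 44207 and 36080 CPM against 27014, 24852 and 38423 CPM, which overlap, with a log2 fold change of -0.48 ± 0.20 and an adjusted p of 0.999. Serpinb9b, the protease inhibitor, was at 443 and 687 CPM against 187, 330 and 345 CPM, with a log2 fold change of -1.05 ± 0.34 and an adjusted p of 0.999. Of the 16 tested genes of the granule and death ligand list 6 were higher and 10 lower, with a median of -0.06 and 0 called. This list holds the rule gene Gzma, so its counts depend in part on how the cells were chosen. Xcl1 was at 685 and 30.5 CPM against 344, 218 and 284 CPM, and its log2 fold change ran from -1.35 to 3.23 when 1 mouse was left out. Ifng, the main NK cytokine, was counted 7 to 38 times per mouse and gave 0.13 ± 0.60.

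The transcription factor and maturation genes were likewise not called. Id2, which innate lymphocytes need to develop, was at 934 and 946 CPM in the saline mice and at 715, 483 and 639 CPM in the FMT mice. The groups do not overlap, and the log2 fold change was -0.68 ± 0.25 (SE), with an edgeR p of 0.026 and an adjusted p of 0.999. In T cells the log2 fold change of Id2 was -0.72 ± 0.15, and the NK minus T difference was 0.08 ± 0.26. Tbx21 gave 0.08 ± 0.32 in NK cells. The list of mature CD11b-positive NK cells had 10 of 15 tested genes higher and a median of 0.07. The list of immature CD27-positive NK cells had 1 of 5 higher and a median of -0.34, and the ILC1 and tissue-resident list had 2 of 7 higher and a median of -0.52. Both of the latter lists are high in the cells with few granule UMIs, whose share of the NK cells is given above. Eomes, Cd27, Il7r and Itga1 were sparse in most of the mice and had too few UMIs to be tested.

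Zfp36l2, Gpr65 and Ddit4 had unadjusted edgeR p-values of 0.016, 0.027 and 0.0501 in NK cells. Like Id2 above, these 3 panel genes had negative log2 fold changes in NK cells and in T cells, and none was called. Ccl5, with an unadjusted edgeR p of 0.045 in NK cells, had a log2 fold change of 0.11 in T cells. Zfp36l2, which promotes the decay of mRNAs, was at 415 and 778 CPM in the saline mice and at 301, 171 and 345 CPM in the FMT mice, without overlap. Its log2 fold change was -1.17 ± 0.38 (SE) in NK cells, from -1.48 to -0.70 when 1 mouse was left out, and -1.12 ± 0.25 in T cells. Ddit4, an inhibitor of mTORC1, was at 89.9 and 76.3 CPM against 32.1, 23.6 and 50.7 CPM, from 4 to 13 UMIs per mouse, with log2 fold changes of -1.38 ± 0.60 and -1.71 ± 0.28. In NK cells Ddit4 met the low count filter through the saline mice alone, so the direction of its NK value was in part set by the filter. Gpr65, a proton-sensing receptor, was at 180 and 61.0 CPM against 43.8, 76.6 and 40.5 CPM, which overlap, with -1.37 ± 0.51 and -1.64 ± 0.25. Without saline mouse 1 the NK value of Gpr65 was -0.14, and without saline mouse 2 it was -1.83. The adjusted edgeR p was 0.999 in NK cells and 0.854 in T cells for each of the 3 genes. In T cells Gpr65 and Ddit4 were called, both lower with FMT, under 4 alternatives, namely without barcodes with foreign UMIs, without a low count filter, with DESeq2 and with the replicate block. NK and T cells came from the same libraries, so the T cell values are no independent repeat. The interaction of class and treatment gave differences of 0.05, 0.33 and 0.42 on the log2 scale for Zfp36l2, Ddit4 and Gpr65, with an adjusted p of 1.00 each.

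**Figure D4:**
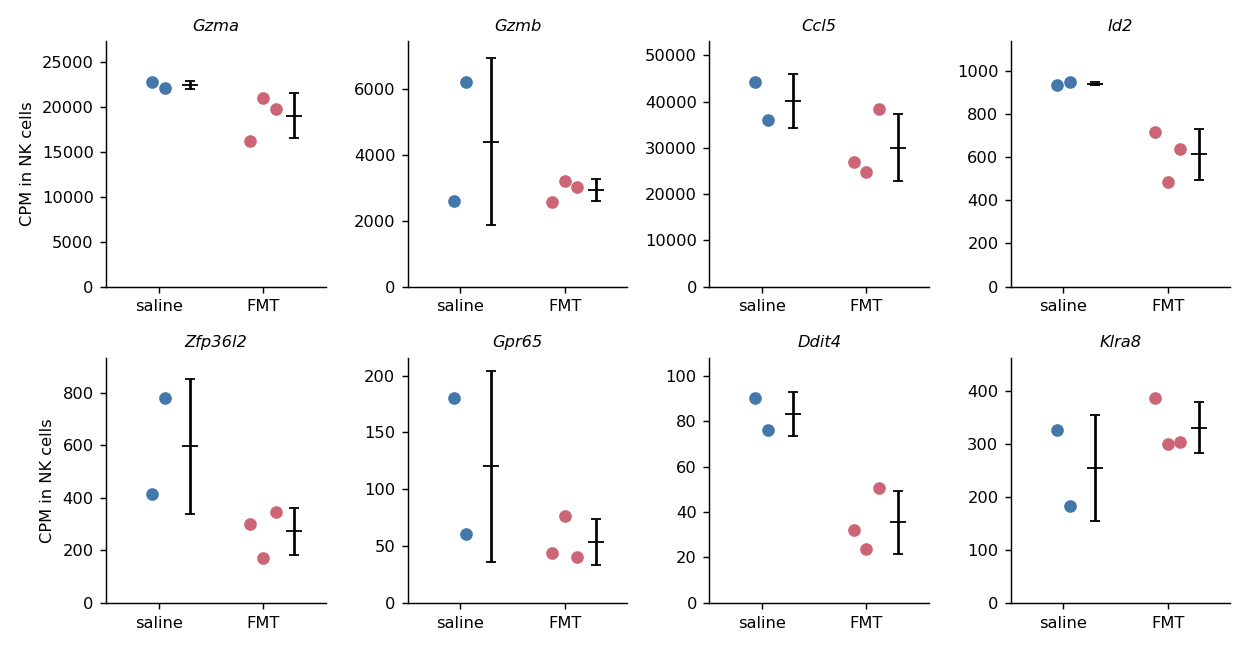
CPM in NK cells of 8 panel genes, with 1 point per mouse and the mean ± SD of each group in black (saline n = 2, FMT n = 3). Both saline points of Gzma, Id2, Zfp36l2 and Ddit4 lie above the FMT points, and Klra8 overlaps. How many of all tested genes lack overlap was not counted, and Ddit4 met the low count filter through the saline mice alone. Gzma chose the cells, and none of the other genes shown passed the adjusted test.

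Of all genes tested, the 5 with the smallest p-values in each direction are given as values, each with an edgeR adjusted p of 0.999. The low count filter asks for enough UMIs in only as many mice as the smaller group holds. Kdelr1, Mpp6, Chmp1a and Erdr1 met it through the FMT mice alone, and Tmem106b through the saline mice alone. The direction of their fold changes was therefore in part set by the filter. Kdelr1, a receptor that returns proteins to the endoplasmic reticulum, was counted 1 and 2 times in the saline mice and 33, 17 and 12 times in the FMT mice. That is 6.92 and 30.5 CPM against 96.3, 100.1 and 122 CPM, with a log2 fold change of 2.69 ± 0.63 (SE) in NK cells and 0.10 in T cells. Leaving out saline mouse 1 gave 1.79 and leaving out saline mouse 2 gave 3.71. Mpp6 was at 13.8 and 15.3 CPM against 87.6, 64.8 and 81.1 CPM. Chmp1a was counted 7 and 1 times against 44, 18 and 19, and its log2 fold change of 1.81 ran from 1.41 to 3.16 with 1 mouse left out. Erdr1, whose copies on the sex chromosomes make its counting uncertain, had 0 UMIs in both saline mice and 30, 10 and 37 in the FMT mice. Against a floor of 3 counts over the saline group, Erdr1 was at least 8.83-fold higher with FMT. In T cells it was at 8.61 and 7.92 CPM against 154, 82.0 and 948 CPM. The lower genes were Serpina3g, Tes, PISD, Snap47 and Tmem106b, with log2 fold changes of -1.51, -1.20, -1.06, -1.83 and -1.96. With 1 mouse left out, Serpina3g ran from -1.97 to -0.56, the smaller value without saline mouse 1, Snap47 from -2.22 to -1.19 and Tmem106b from -2.41 to -1.57. Serpina3g, an inhibitor of cathepsins, was counted 64 and 12 times with saline against 56, 18 and 7 times with FMT, and PISD is placed on an unplaced scaffold.

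The mitochondrial gene mt-Nd5 was also among them, at 104 and 107 CPM with saline and 254, 218 and 274 CPM with FMT. Its log2 fold change was 1.16 ± 0.32 (SE). Of the mitochondrial transcripts, 12 of 12 tested were higher, with a median of 0.35 and 0 called. Their summed level was 8204 and 20977 CPM in the saline mice and 30312, 12697 and 10845 CPM in the FMT mice, which overlap. In T cells 1 of 13 was higher with FMT and 12 were lower. The summed proximal tubule list was at 1757 and 7811 CPM in the NK cells of the saline mice. In the FMT mice it was at 14110, 4293 and 3689 CPM, which overlaps with saline. Without the 11 NK barcodes with 20 or more proximal tubule UMIs, the log2 fold change of mt-Nd5 was 0.66. In FMT mouse 3, 1 NK barcode held 97.4% of that library's 1249 erythroid UMIs. In FMT mouse 2, 1 NK barcode held 84.0% of its 293 monocyte and macrophage UMIs. The part of tubule, erythroid or monocyte transcripts in the mitochondrial and other values was not tested.

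Further gene lists showed 0 called genes each in NK cells. Of the MHC class I presentation genes, 13 of 14 were lower with FMT, with a median of -0.17, and H2-K1 gave -0.26. Of the cytokine receptor and JAK-STAT genes, 9 of 12 were lower, with a median of -0.20. Of the immediate early genes, 9 of 14 were higher, with a median of 0.39. Junb was at 367 and 809 CPM in the saline mice and at 1188, 683 and 1682 CPM in the FMT mice, which overlap. Of the interferon-stimulated genes 3 of 8 were higher, with a median of -0.17. Of 21 genes that bind, carry or convert inosine and adenosine, which the series title names, 4 were tested and 1 was higher. Adora2a, the adenosine receptor of lymphocytes, gave -1.08 with an edgeR p of 0.161.

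The FMT effect differed between NK and T cells for 3 of 7542 genes, a share of 0.0398%, and these calls rested on a few T barcodes. Ngp, S100a9 and Camp encode granule and alarm proteins of neutrophils. Ngp was counted 3 and 1 times in the NK cells of the saline mice and 0 times in those of the 3 FMT mice, and 26 and 4 times against 1361, 2 and 838 times in T cells. One T barcode of FMT mouse 1 held 1356 of those 1361 UMIs, and 2 T barcodes of FMT mouse 3 held 835 of the 838. The differences of the log2 fold change, NK minus T, were -6.12 ± 0.93 (SE) for S100a9, and Ngp and Camp, whose FMT NK cells were at 0 UMIs, have no bounded fold. The edgeR adjusted p was 0.00501 for each of the 3. Without the T barcodes with 10 or more UMIs of these genes, 1 in saline mouse 2 and 2, 1 and 2 in FMT mice 1 to 3, 0 genes were called, 268 had an unadjusted p under 0.05, and the S100a9 difference was 0.49.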

How the data were processed

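Kidney cells of 5 mice were profiled in droplets. The authors deposited raw UMI counts per gene and barcode. Cell Ranger 2.1.1 and the build mm10 are given in the submitters' processing notes, while the matrix headers give Cell Ranger 4.0.0. Members and gene lists were chosen with earlier results of these data known. Named genes were a fixed panel, the 5 smallest p-values per direction, as fewer than 5 genes were called, and the 10 largest NK over T ratios among genes with at least 100 CPM. Repeated symbols were settled through GENCODE M21, which held 27722 of 27998 identifiers. The few-granule limit and the alternatives that leave out tubule-laden or neutrophil barcodes were chosen after seeing the data. T cells had at least 2 CD3 UMIs, no Cd79a UMI and did not meet the NK rule.

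UMIs were summed per mouse over cells and tested with the edgeR 4.0.16 quasi-likelihood test (R 4.3.3, TMM, edgeR's low count filter, Benjamini-Hochberg at 0.05). The interaction of NK and T cells had the mouse as a block. Standard errors are the fold change divided by the root of F. Shares were tested by exact permutation of the absolute difference of means. Alternatives changed the rule, filters, scaling, tool (DESeq2 1.42.0) and libraries. Scrublet (scanpy 1.11.5) scored doublets, which were kept in the main results. Depth was 15333445 to 45309178 UMIs per library. Intervals and floors cover counting error only. The fits were tested on simulated data.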

Additional observations from a re-analysis of the deposited data

Results flagged for a closer look

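The FMT effect differed between NK cells and T cells, by the interaction test, for Ngp (-13.15 on the log2 scale, NK minus T), S100a9 (-6.12) and Camp (-12.23). NK cells of the FMT mice held 0 UMIs of Ngp and Camp, so those fitted values depend on the small count that edgeR adds. In FMT mouse 1, 1 T barcode held 99.6% of the Ngp UMIs of T cells, and in FMT mouse 3, 2 held 99.6%. Camp, counted 1334 and 920 times in the T cells of these mice, had 99.9% and 99.7% in 1 barcode each.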

How the results depend on the processing

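NK share differences kept their sign under the alternatives run, and the number of mice allows no p below 0.1 under any of them. FMT minus saline was 0.42 percentage points of kept barcodes and ranged from 0.303 to 0.539 without 1 mouse. Of NK plus T cells it was 3.37 points, from 2.04 to 4.63 without 1 mouse, and the groups overlapped without NK and T barcodes with foreign UMIs or without the 11 tubule-laden NK barcodes. The share of NK cells with few granule UMIs, at -13.4 points with FMT minus saline, ranged from -16.9 to -10.3 without 1 mouse and was -16.4 and -17.4 with the other limits.

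NK cells had 0 called genes under 17 of 18 alternatives and 9 without a low count filter, among them 4 haemoglobin genes and Erdr1, all higher. T cells had 0 called genes (548 of 10164 with an edgeR p under 0.05), and 3 without barcodes with foreign UMIs, 7 without a low count filter, 6 with DESeq2, 40 with the replicate block and 0 to 1 without 1 mouse (1 without saline mouse 1). The interaction had 3 called genes, 5 without doublets, 5 without tubule-laden NK barcodes and 0 without T barcodes with neutrophil UMIs. It had 4 without barcodes with foreign UMIs, 1 with cells thinned to 1000 UMIs and 12 without a low count filter. Without FMT mouse 1, 2 or 3 it had 0, 18 and 14. Gzmb and the rule gene Gzma, neither called in the main fit, were among the calls without foreign UMIs, without a low count filter and without FMT mouse 2 or 3. The S100a9 difference turned to 0.88 without foreign UMIs and to 0.49 without T barcodes with neutrophil UMIs. Other causes were not tested. Of the values of 52 named genes under alternatives, 804 stayed within their standard error and 70 moved by more than their standard error.

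With the replicate number as a replicate block, NK cells had 0 called genes. The share differences, taken over mice 1 and 2 of each group, were 0.42 and 2.04 points. They equal the differences without FMT mouse 3, so they are no separate check. The deviations of same-numbered mice from their group means had correlations of -0.40 and -0.21 in NK cells and 0.02 and -0.06 in T cells. With 2 saline mice, the saline deviations mirror each other. These correlations therefore cannot tell whether replicate numbers mark a batch. The 11 NK cells of saline mouse 2 limit what a gene test can show.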
